A study of Mus musculus with 18 samples.

Results

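Fc receptors and leukocyte signalling genes were followed in mouse ischemic cortex as a set of 10 genes among the 37257 gene symbols measured. The genes are Fcgr1, Fcgr2b, Fcgr3, Fcgr4, Fcer1g, Rac2, Cd52, Ptprc, Laptm5 and Syk, and each was found by its symbol. They were chosen by name from results on the FPKM (fragments mapped to a gene, scaled by transcript length and by the mapped fragments of the library) of all 18 libraries. Their differences between conditions are therefore given as a description, with no p-value printed for any of them. Counts of calls by limma, and counts at an unadjusted p under 0.05, stand beside the share of all genes and support nothing about the set.

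Fc gamma receptors are membrane proteins of myeloid cells that bind the constant part of IgG. The activating receptors Fcgr1, Fcgr3 and Fcgr4 signal through the common gamma chain Fcer1g, whose activation motif (ITAM) recruits the tyrosine kinase Syk after phosphorylation by Src-family kinases, whereas Fcgr2b carries an inhibitory motif (ITIM) that recruits phosphatases. Rac2 is a GTPase of blood cells that serves actin remodelling and the phagocyte NADPH oxidase, Ptprc (CD45) is a tyrosine phosphatase of leukocytes, Cd52 is a short glycoprotein anchored to leukocyte membranes, and Laptm5 is a lysosomal membrane protein of blood cells and microglia. In brain these genes are known mainly from microglia, border macrophages and leukocytes that enter injured tissue.

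Poly(A) RNA was sequenced from cortex on the side of surgery in adult male C57BL/6J mice, which were 8 to 10 weeks old and weighed 24 to 26 g. All groups, shams included, had received an adeno-associated virus (AAV) in the left lateral ventricle 4 weeks before surgery. A neuron-active promoter, that of synapsin, drove a short hairpin RNA (shRNA) from the virus. In the T arm the hairpin was directed against Tiparp (AAV-SYN-shRNA-TIPARP), and in the C arm it was a scramble control (AAV-SYN-shRNA-Con). Surgery was transient occlusion of the middle cerebral artery (tMCAO), a model of focal ischemia with reperfusion, or sham. The 6 groups of 3 libraries were R24h_T and R24h_C, taken 24 h after tMCAO, R28d_T and R28d_C, taken 28 d after it, and Sham_T and Sham_C. The labels do not say that the 3 libraries of a group come from separate mice, so the tests measure the spread between these libraries.

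The libraries had a rough relative depth between 0.933 and 1.083 times that of Sham_C1, read from the lowest FPKM steps of low genes. The neuron markers Snap25, Rbfox3, Syt1, Slc17a7 and Gad1 summed to 632 to 864 FPKM in 16 of the libraries, to 631 FPKM in R28d_C2 and to 363 FPKM in R24h_C3. Tiparp was at 3.99, 5.00 and 3.01 FPKM in R24h_T and at 6.66, 4.60 and 8.65 FPKM in R24h_C, and the arms also overlapped in sham and at 28 d, so the whole-cortex values do not set the T libraries apart from the C libraries. The choroid plexus gene Ttr stood at 501 to 1682 FPKM in Sham_T1, Sham_T2, R24h_C3 and R28d_T2 and at 81.9 FPKM in R28d_C2, against 0.892 to 13.4 FPKM in the other libraries.

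Promoters are shown for the 4 Fc gamma receptors, Fcer1g and Laptm5. After tMCAO, Laptm5 had the highest ratio of late to early mean FPKM of the set in both arms, 1.99 (T) and 1.199 (C). Among the receptors and Fcer1g this ratio ran from 0.48 to 1.495 in the T arm and from 0.183 to 0.496 in the C arm. RefSeq promoters of GRCm38.p6 were found for 8 of the 10 genes. Each line runs 5′ to 3′ on the gene's strand, from 100 bases before the annotated start site to 50 bases after it. Capitals mark GAGGAA or its reverse complement TTCCTC, the purine-rich core bound by Spi1 (PU.1), the lineage factor of myeloid cells.
Fcgr1, chr3:96293920-96294069, minus strand: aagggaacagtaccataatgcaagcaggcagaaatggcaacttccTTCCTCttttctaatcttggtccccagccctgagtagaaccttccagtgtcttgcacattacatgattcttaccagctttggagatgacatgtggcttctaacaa
Fcgr2b, chr1:170976022-170976171, minus strand: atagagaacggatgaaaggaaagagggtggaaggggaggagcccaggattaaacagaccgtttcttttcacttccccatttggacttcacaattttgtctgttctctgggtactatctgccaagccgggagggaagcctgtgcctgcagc
Fcgr3, chr1:171059345-171059494, minus strand: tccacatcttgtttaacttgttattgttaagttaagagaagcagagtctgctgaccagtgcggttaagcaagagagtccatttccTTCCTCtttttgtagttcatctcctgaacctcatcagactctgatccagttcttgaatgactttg
Fcgr4, chr1:171018826-171018975, plus strand: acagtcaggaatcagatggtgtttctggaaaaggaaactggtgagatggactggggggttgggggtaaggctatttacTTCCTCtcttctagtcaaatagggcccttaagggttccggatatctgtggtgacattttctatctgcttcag
Fcer1g, chr1:171234300-171234449, minus strand: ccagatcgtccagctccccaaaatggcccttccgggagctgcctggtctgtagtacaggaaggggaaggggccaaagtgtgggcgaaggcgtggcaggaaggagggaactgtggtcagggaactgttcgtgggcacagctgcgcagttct
Laptm5, chr4:130913216-130913365, plus strand: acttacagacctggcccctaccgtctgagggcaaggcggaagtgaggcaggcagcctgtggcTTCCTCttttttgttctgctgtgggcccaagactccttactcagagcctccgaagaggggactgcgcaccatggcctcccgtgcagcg

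Searched on both strands over 250 bases before to 50 bases after the start site, GAGGAA was held by 6 of the 8 genes with a promoter (Fcgr1, Fcgr3, Fcgr4, Laptm5, Ptprc and Syk), and by 28.3% of the 32851 promoters of the same length. Taken by gene, 31.3% of 27025 genes held it in at least 1 promoter. The first base of the motif lay at -55 in Fcgr1, at -22 in Fcgr4, at -38 in Laptm5 and, from the start site shown, at -15 in Fcgr3. A second annotated start of Fcgr3 puts the same bases at -6. The letters were not in the windows of Fcgr2b and Fcer1g. TATAAA, searched the same way, was in the windows of Laptm5 and Ptprc and in 13.6% of all promoters. These matches describe the letters only. Fcgr2b, Fcgr4 and Fcgr3 are next to each other on mouse chromosome 1, with Fcer1g a few genes away. Fcgr3 and Fcgr2b are near-identical in part: 9.58% of the 50-base stretches of the Fcgr3 transcripts also occur in Fcgr2b, so some reads may have been split between them. Of the Cd52 stretches, 8.89% lie in Crybg2, which overlaps it on the other strand. Fcgr1, Fcgr4, Fcer1g, Laptm5 and Syk shared no stretch with another gene.

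At 24 h after tMCAO all 10 genes were higher than in sham in both arms, with no overlap between the 3 ischemic and the 3 sham libraries. The ratio of mean FPKM in the C arm ran from 1.67 for Laptm5 to 44.4 for Fcgr4, and in the T arm from 1.61 for Laptm5 to 27.4 for Fcgr4. Among all genes tested, 36.1% were higher without overlap in the C arm and 13.9% in the T arm. In these bulk samples more cells of a type and more RNA per cell cannot be told apart.

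Among the ligand-binding receptors, Fcgr4, the activating receptor for IgG2a and IgG2b in mouse, was near 0 in sham. Fcgr4 was at 3.85, 5.32 and 2.07 FPKM in R24h_T and at 0.122, 0.144 and 0.144 FPKM in Sham_T. It was at 5.04, 3.34 and 7.31 FPKM in R24h_C and at 0.0973, 0.0473 and 0.209 FPKM in Sham_C. The lowest ischemic library stood above the highest sham library of either arm by a wide margin, and since the sham values are so low the ratio itself is imprecise. Fcgr1, the high-affinity receptor, was at 3.99, 4.65 and 2.20 FPKM in R24h_T against 1.11, 0.672 and 0.581 FPKM in Sham_T. Fcgr1 was at 6.67, 3.21 and 5.83 FPKM in R24h_C against 0.818, 0.555 and 0.918 FPKM in Sham_C. The libraries R24h_T3 and R24h_C2 were the low ones for this gene, as for most of the set.

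Fcgr3, the low-affinity activating receptor, was the most abundant of the 4 receptors in all 18 libraries. It was at 26.2, 17.6 and 11.5 FPKM in R24h_T against 6.87, 5.69 and 6.17 FPKM in Sham_T, and at 25.8, 26.2 and 35.5 FPKM in R24h_C against 7.12, 8.30 and 7.39 FPKM in Sham_C. The inhibitory receptor Fcgr2b was at 4.34, 4.06 and 1.52 FPKM in R24h_T against 0.497, 0.320 and 0.777 FPKM in Sham_T. In the C arm Fcgr2b was at 5.45, 3.52 and 7.00 FPKM in R24h_C against 0.617, 0.507 and 0.442 FPKM in Sham_C. The inhibitory receptor was thus higher at 24 h together with the activating ones. Its ratio of means was 6.23 in the T arm and 10.2 in the C arm. The ratios in the T and C arms were 2.96 and 3.84 for Fcgr3, 4.59 and 6.86 for Fcgr1, and 27.4 and 44.4 for Fcgr4. On the log2(FPKM + 1) scale Fcgr2b and Fcgr3 were close, at 1.43 and 1.36 in the T arm and 2.02 and 1.80 in the C arm.

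The shared signalling chain Fcer1g was at 29.4, 31.9 and 17.99 FPKM in R24h_T against 6.30, 7.60 and 8.54 FPKM in Sham_T. It was at 48.4, 23.3 and 56.5 FPKM in R24h_C against 5.86, 6.90 and 5.10 FPKM in Sham_C, which gave a log2 difference of 2.57 ± 0.40 (SE, on the log2(FPKM + 1) scale of all log2 differences given here), the highest of the 10 genes in that arm. Syk, the kinase that binds the phosphorylated chain, had a lower level. Syk was at 0.9998, 1.15 and 0.563 FPKM in R24h_T against 0.511, 0.529 and 0.481 FPKM in Sham_T, and at 2.13, 0.819 and 2.04 FPKM in R24h_C against 0.541, 0.483 and 0.476 FPKM in Sham_C. R24h_C1 and R24h_C3 held the 2 highest Syk values at 24 h, and in R24h_T3 the gene lay just above its sham range.

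Among the leukocyte genes, Rac2 was at 4.59, 5.05 and 3.20 FPKM in R24h_T against 0.827, 0.878 and 1.02 FPKM in Sham_T, and at 7.16, 3.36 and 6.47 FPKM in R24h_C against 0.959, 0.932 and 1.28 FPKM in Sham_C. Cd52 was at 8.05, 9.57 and 5.17 FPKM in R24h_T against 1.17, 1.26 and 1.58 FPKM in Sham_T, and at 13.3, 4.16 and 14.3 FPKM in R24h_C against 0.956, 1.06 and 0.826 FPKM in Sham_C. Rac2 spread less than Cd52 between the ischemic libraries, and R24h_C2 was the lowest of its group for both. Ptprc was at 0.590, 0.858 and 0.493 FPKM in R24h_T against 0.151, 0.155 and 0.154 FPKM in Sham_T, and at 0.864, 0.408 and 0.867 FPKM in R24h_C against 0.128, 0.162 and 0.127 FPKM in Sham_C, so it stayed under 1 FPKM in all 12 of these libraries. Laptm5 was at 25.8, 15.3 and 17.1 FPKM in R24h_T against 10.7, 11.8 and 13.8 FPKM in Sham_T, and at 22.0, 14.9 and 20.9 FPKM in R24h_C against 11.3, 12.3 and 11.03 FPKM in Sham_C. Laptm5 had the highest level of the set in sham and the lowest ratio to sham at 24 h.

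**Figure D1:**
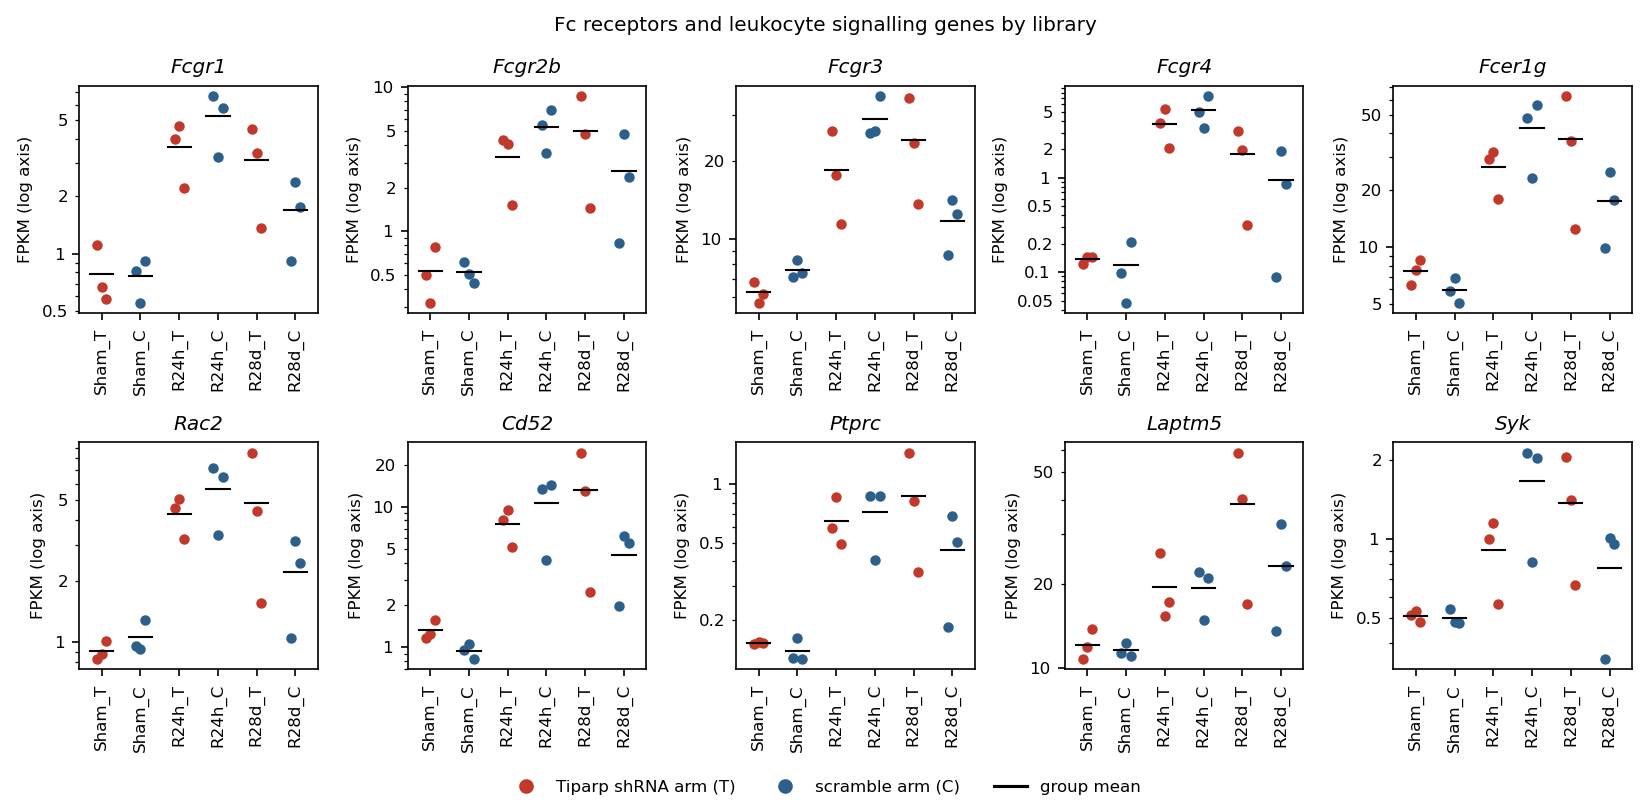
FPKM (log axis, different range in each panel) of the 10 genes in each of the 18 libraries, with T-arm groups in red, C-arm groups in blue and a black line at the mean of 3 libraries. All 10 genes lie above sham at 24 h without overlap, and at 28 d the 3 libraries of a group spread widely, for example from 12.5 to 62.7 FPKM for Fcer1g in R28d_T.

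In the C arm, 8 of the 10 genes passed the filter of at least 1 FPKM in at least 3 libraries and all 8 were past the threshold of limma (adjusted p under 0.05 over all genes), where 19.8% of all genes tested were called higher. Ptprc and Syk did not reach the filter, and Fcgr1, Fcgr2b and Fcgr4 passed it only through R24h_C libraries. Since the genes were selected on these libraries, nothing is read from that count. With 1 R24h_C library left out only 5 of the genes were tested, of which 3 were called without R24h_C1, 5 without R24h_C2 and 4 without R24h_C3. Of all genes, 2.41%, 36.6% and 15.2% were then called in either direction, against 24.0% with all libraries. The count was 6 or 7 of 8 without any single Sham_C library. The same 8 genes were tested in the T arm and 4 were called higher (Fcgr4, Fcer1g, Rac2 and Cd52), where 0.126% of all genes were. Fcgr2b and Fcgr4 passed the filter there only through R24h_T libraries, and nothing is read from this count either. No gene of the set was called when any of Sham_T1, Sham_T2, Sham_T3, R24h_T1 or R24h_T2 was left out, and 5 of the 6 tested were called without R24h_T3. Of all genes, 6.23% were then called in either direction, against 0.2% with all libraries. The median log2 difference of the 10 genes was 1.79 in the C arm (0.58 to 2.57) against a median of 0.13 over all genes, and 1.39 in the T arm (0.32 to 2.001) against 0.06.

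At 28 d after tMCAO the 10 genes still stood above sham on average, but the libraries of a group differed among themselves by up to 21.2-fold. R28d_T1 was the highest and R28d_T3 the lowest of its group for all 10 genes, and R28d_C2 was the highest and R28d_C1 the lowest of its group for all 10. All 10 genes were above the Sham_T libraries without overlap in R28d_T, where 10.9% of all genes were. In R28d_C 7 of the 10 were above Sham_C without overlap, where 12.6% of all genes were.

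Fcgr4 was at 3.13, 1.95 and 0.313 FPKM in R28d_T and at 0.0900, 1.91 and 0.867 FPKM in R28d_C, and R28d_C1 lay within the range of its shams. Fcgr1 was at 4.52, 3.37 and 1.37 FPKM in R28d_T and at 0.921, 2.38 and 1.77 FPKM in R28d_C. Fcgr3 was at 35.0, 23.4 and 13.7 FPKM in R28d_T and at 8.68, 14.2 and 12.5 FPKM in R28d_C. The activating receptors thus lay above sham in every R28d_T library, but R28d_C1 was close to sham for all 3. The inhibitory Fcgr2b was at 8.65, 4.74 and 1.45 FPKM in R28d_T and at 0.830, 4.73 and 2.37 FPKM in R28d_C, and R28d_T1 held the highest Fcgr2b value of all 18 libraries. The gamma chain Fcer1g was at 62.7, 36.3 and 12.5 FPKM in R28d_T and at 9.94, 24.9 and 17.7 FPKM in R28d_C, and Syk was at 2.05, 1.40 and 0.667 FPKM in R28d_T and at 0.348, 1.010 and 0.959 FPKM in R28d_C. For Syk, R28d_C1 lay below every sham library. Rac2 was at 8.54, 4.41 and 1.56 FPKM in R28d_T and at 1.05, 3.13 and 2.46 FPKM in R28d_C, and Cd52 at 24.4, 12.9 and 2.47 FPKM in R28d_T and at 1.97, 6.22 and 5.49 FPKM in R28d_C. Cd52 in R28d_T1 was the highest value of that gene in the series. Ptprc was at 1.44, 0.811 and 0.355 FPKM in R28d_T and at 0.185, 0.688 and 0.505 FPKM in R28d_C, and Laptm5 at 58.9, 40.1 and 16.9 FPKM in R28d_T and at 13.5, 32.6 and 23.2 FPKM in R28d_C. The 3 genes of the set whose R28d_C libraries overlapped Sham_C were Fcgr4, Rac2 and Syk.

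**Figure D2:**
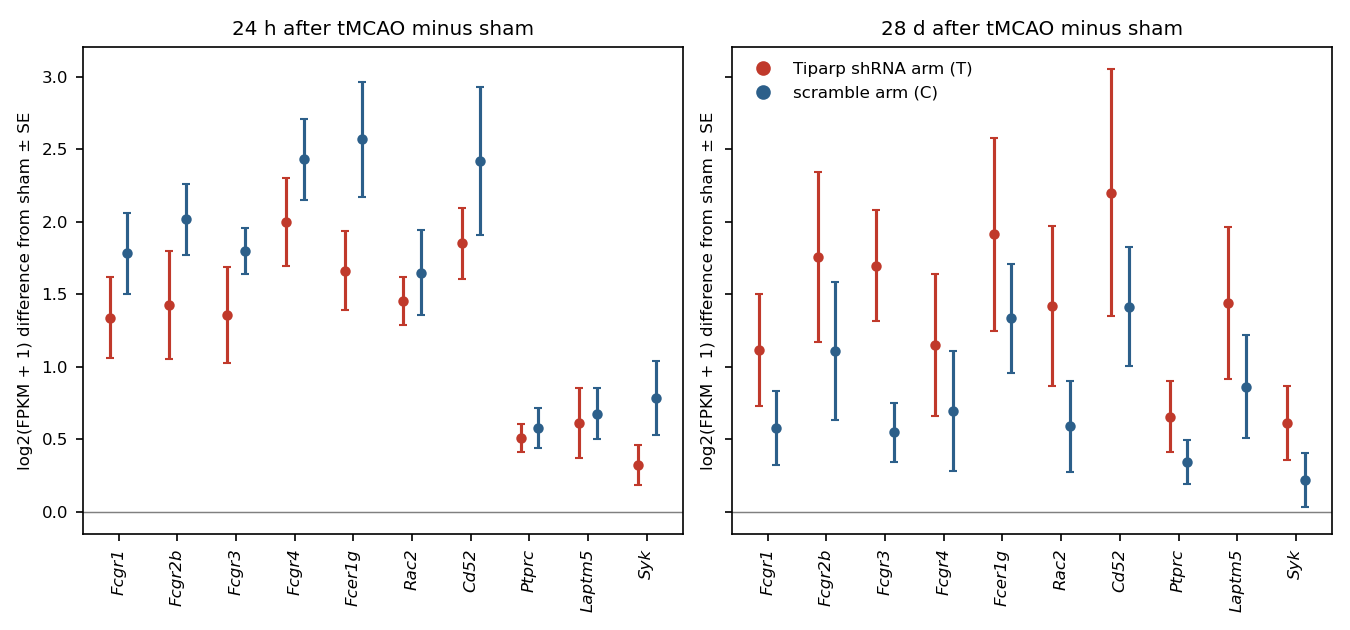
Log2(FPKM + 1) difference from the sham group of the same arm, ± SE from the SDs of 3 libraries per group, at 24 h (left) and 28 d (right), T arm in red and C arm in blue. All points lie above 0. In the T arm the error bars are wider at 28 d for every gene, reaching 0.85 for Cd52. In the C arm some are wider at 28 d, as for Fcgr2b (0.478 against 0.245 at 24 h), and some narrower, as for Cd52 (0.408 against 0.509).

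Of the 7 genes tested at 28 d in the T arm and the 5 tested in the C arm, limma called none against sham, where 0.00739% of all genes were called in the T arm and 0.0522% in the C arm. At an unadjusted p under 0.05 there were 7 in the T arm, where 10.5% of all genes were, and 4 in the C arm, where 11.5% were. The genes were selected on these libraries, so nothing is read from these counts. Fcgr2b passed the filter in the T arm only through R28d_T libraries. Without R28d_T3 limma called all 6 genes of the set then tested in the T arm and 4.25% of all genes. Without R28d_C1 it called all 5 tested in the C arm and 1.42% of all genes. Each was the lowest library of its group for all 10 genes. The median log2 difference was 1.43 in the T arm (0.61 to 2.20) against 0.04 over all genes, and 0.64 in the C arm (0.22 to 1.42) against 0.04. The comparisons at 24 h and 28 d share their sham libraries.

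The ratio of 28 d to 24 h ran over a wide range within the set. At 28 d Fcgr4 averaged 1.80 ± 1.42 FPKM in R28d_T against 3.75 ± 1.63 FPKM in R24h_T, and 0.955 ± 0.913 FPKM in R28d_C against 5.23 ± 1.995 FPKM in R24h_C (SD, n = 3 each), the lowest ratio of 28 d to 24 h in both arms (0.48 and 0.183). Fcgr1 had the next lowest ratio in both arms (0.853 and 0.323). Laptm5 had the highest ratio in both arms: it averaged 38.7 ± 21.0 FPKM in R28d_T against 19.4 ± 5.63 FPKM in R24h_T, and 23.1 ± 9.53 FPKM in R28d_C against 19.3 ± 3.86 FPKM in R24h_C (1.99 and 1.20). In the C arm Fcgr1, Fcgr3, Fcgr4 and Rac2 were lower at 28 d than at 24 h without overlap, where 37.5% of all genes did not overlap in either direction, and limma called only Fcgr3 (log2 difference -1.25 ± 0.24) of 9 tested, where 6.0% of all genes were called. That call was lost when any library but R24h_C2 was left out, and without R24h_C2 7 of 9 genes of the set and 21.4% of all genes were called. In the T arm every gene of the set overlapped between 28 d and 24 h, where 13.9% of all genes did not, and limma called none of 9, none of them at an unadjusted p under 0.05 (8.1% of all genes), where 0.0% of all genes were called.

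At 28 d the same library was the highest, and the same library the lowest, of its group for all 10 genes, and ratios within a library were compared as well. Fcgr4 was 14.9%, 34.8% and 12.1% of the Laptm5 FPKM in R24h_T and 22.9%, 22.5% and 34.9% of it in R24h_C. At 28 d it was 5.32%, 4.86% and 1.85% of Laptm5 in R28d_T and 0.665%, 5.86% and 3.74% in R28d_C. In sham it was 1.05% to 1.22% of Laptm5 in Sham_T and 0.385% to 1.89% in Sham_C. All 6 libraries at 24 h lay above all 6 at 28 d, whichever arm they came from. This ratio was picked after the values were seen, and no test was made.

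The make-up of the Fc gamma receptors is given as shares, with no test. Fcgr3 was 55.7% to 68.3% of the summed FPKM of the 4 receptors in R24h_T and 60.0% to 72.3% in R24h_C, against 79.9% to 83.4% in Sham_T and 82.3% to 88.2% in Sham_C. The share of Fcgr4 was 10.0% to 16.8% in R24h_T and 9.20% to 13.1% in R24h_C, against 1.41% to 2.12% in Sham_T and 0.503% to 2.33% in Sham_C. At 28 d the shares of Fcgr4 were 6.11%, 5.82% and 1.86% in R28d_T and 0.855%, 8.23% and 4.96% in R28d_C, so that R28d_T3 and R28d_C1, the libraries with the lowest level of the set, also had a make-up within the sham range for this receptor. The inhibitory Fcgr2b was 16.9%, 14.1% and 8.64% of the sum in R28d_T and 7.89%, 20.4% and 13.6% in R28d_C, against 4.69% to 10.1% in Sham_T and 4.93% to 7.13% in Sham_C. The log2 ratio of the summed FPKM of the 3 activating receptors to that of Fcgr2b, taken on plain FPKM, averaged 3.04 ± 0.31 in R24h_T against 3.84 ± 0.62 in Sham_T, and 2.93 ± 0.25 in R24h_C against 4.04 ± 0.30 in Sham_C (SD, n = 3 each). At 28 d this log2 ratio averaged 2.77 ± 0.57 in R28d_T and 2.73 ± 0.79 in R28d_C. The 3 sham libraries of the C arm, at 3.70 to 4.27, did not overlap the 3 R24h_C libraries, at 2.78 to 3.22, whereas in the T arm Sham_T3, at 3.15, lay within the R24h_T range of 2.76 to 3.37. Since Fcgr2b and Fcgr3 share part of their sequence, their shares depend on how the authors' quantification divided common reads.

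**Figure D3:**
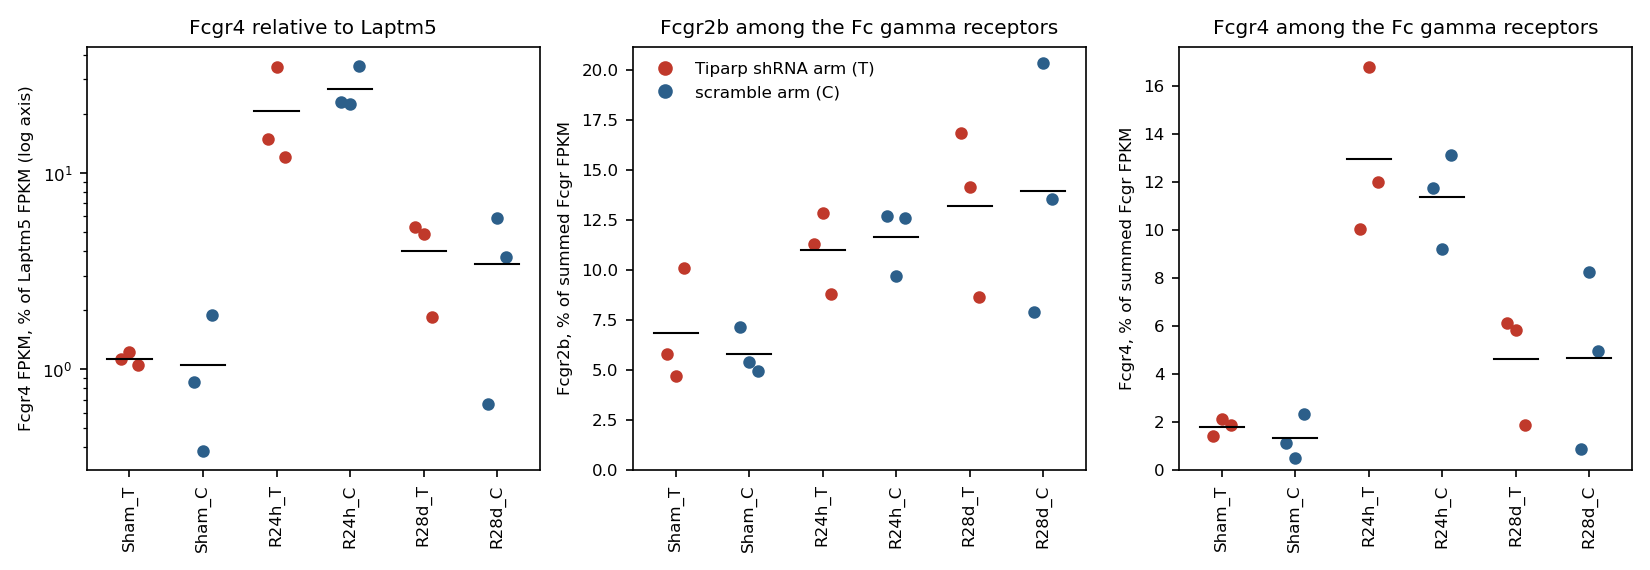
Fcgr4 FPKM as a percentage of Laptm5 FPKM (left, log axis), and Fcgr2b (middle) and Fcgr4 (right) as percentages of the summed FPKM of Fcgr1, Fcgr2b, Fcgr3 and Fcgr4, with 1 point per library and a line at the group mean. The 6 libraries at 24 h lie at 12.1% to 34.9% of Laptm5, and the 6 libraries at 28 d at 0.665% to 5.86%.

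Between the arms the genes of the set lay on opposite sides at the 2 times, without any call. At 24 h all 10 log2 differences of R24h_T minus R24h_C were below 0, from -0.69 ± 0.36 for Fcgr3 to -0.004 ± 0.28 for Laptm5, and under median-ratio scaling that of Laptm5 was 0.08. All 10 genes overlapped between R24h_T and R24h_C, where 12.0% of all genes did not, and limma called none of 9 and 0.0% of all genes, with 1 of the 9 and 7.23% of all genes at an unadjusted p under 0.05. The median over all genes was -0.08. At 28 d all 10 differences of R28d_T minus R28d_C were above 0, from 0.33 to 1.04, with a median of 0.64 against 0.02 over all genes. All 10 again overlapped, where 6.09% of all genes did not, and limma called none of 9 and 0.0% of all genes, with 1 of the 9 and 2.52% of all genes at an unadjusted p under 0.05. Since at 28 d the same libraries were the highest and the lowest of their groups for all 10 genes, 10 differences of the same sign are not 10 separate observations. In sham, Cd52 was higher in Sham_T than in Sham_C and Fcgr3 lower, both without overlap, where 19.5% of all genes did not overlap. Limma called none of the 4 genes tested in sham, and 0.21% of all genes, with 2 of the 4 and 12.8% of all genes at an unadjusted p under 0.05.

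The difference between the arms in the response to tMCAO was fitted as an interaction. At 24 h the interaction (T response minus C response) of the 10 genes ran from -0.91 for Fcer1g to -0.06 for Laptm5, limma called none of the 9 tested, none at an unadjusted p under 0.05 (10.9% of all genes), and 0.0% of all genes were called. The Laptm5 value was 0.02 under median-ratio scaling. At 28 d it ran from 0.31 to 1.15 for Fcgr3, and again none of 9 was called, where 0.00703% of all genes were, with 1 of the 9 and 4.85% of all genes at an unadjusted p under 0.05. A difference between the arms in the response of these genes was therefore not shown at either time.

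The level of the set moved across libraries beside markers of several cell types. The mean log2 level of the 10 genes above the Sham_C mean was 1.49, 1.49 and 0.87 in R24h_T, 1.87, 1.17 and 1.98 in R24h_C, 2.18, 1.59 and 0.52 in R28d_T and 0.19, 1.23 and 0.89 in R28d_C. The 8 monocyte and macrophage markers (Ccr2, Ly6c2, Cd14, Ms4a7, Mrc1, Cd163, Msr1 and F13a1) summed to 4.86 to 53.6 FPKM in R24h_T and 23.9 to 97.1 FPKM in R24h_C, to 3.64 to 15.4 FPKM in R28d_T and 1.84 to 8.86 FPKM in R28d_C, and to 1.62 to 2.15 FPKM in the shams of both arms. The 8 neutrophil markers (S100a8, S100a9, Ly6g, Mmp8, Cxcr2, Camp, Ngp and Retnlg) summed to 4.38 to 29.5 FPKM in R24h_T and 24.9 to 204 FPKM in R24h_C, and to 1.71 to 17.6 FPKM in R28d_T and 0.235 to 3.79 FPKM in R28d_C. In the shams they summed to 0.350 to 1.86 FPKM, with Ly6g at 0 in all 6 sham libraries. R24h_C1 and R24h_C3 were the highest libraries at 24 h for the 10 genes and for the monocyte and macrophage list, and R24h_T3 was the lowest for both.

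The 7 microglia markers (P2ry12, Tmem119, Sall1, Siglech, Cx3cr1, Olfml3 and Gpr34) summed to 25.9 to 54.0 FPKM in R24h_T and 23.7 to 30.7 FPKM in R24h_C, to 48.7 to 67.3 FPKM in R28d_T and 36.6 to 64.9 FPKM in R28d_C, and to 40.1 to 47.0 FPKM in the shams. The 3 R24h_C sums thus lay below all sham sums, without overlap, but the markers did not all go the same way. Olfml3, a secreted protein, was at 5.92, 3.26 and 4.08 FPKM in R24h_C against 1.73, 1.38 and 1.97 FPKM in Sham_C. Sall1, a transcription factor of microglia, averaged 6.27 FPKM in R24h_C against 6.16 FPKM in Sham_C, and P2ry12, a purine receptor, 3.87 FPKM against 11.6 FPKM. The mean log2 level of the microglia list lay below the Sham_C mean in all 3 R24h_C libraries and in R24h_T2, in which the 10 genes lay above it. At 28 d R28d_T1, R28d_T2 and R28d_C2 had the highest sums of the microglia list and also the highest mean levels of the 10 genes. The astrocyte list (Gfap, Aqp4, Aldh1l1 and Slc1a3) summed to 226 to 334 FPKM in R24h_T and 404 to 486 FPKM in R24h_C, reached 1022 FPKM in R28d_T1 and stood at 102 FPKM in R28d_C1, against 87.8 to 118 FPKM in the shams. The 8 T and NK cell markers summed to 0.637 to 4.73 FPKM over all libraries, with Cd3g, Cd8a, Ncr1 and Gzma at 0 in every sham library, and the 4 mast cell markers to at most 2.30 FPKM. The 5 B cell markers summed to 3.71 to 52.7 FPKM, most of it Ighm, with Ms4a1 at 0 in every sham and 24 h library. The red blood cell list summed to 4.60 to 204 FPKM. The part of each of these cell types, and of the choroid plexus gene Ttr named above, in the level of the 10 genes was not tested. R24h_C3 had the highest Ttr and neutrophil marker values and the lowest neuron marker sum, and Ttr was at 7.11 and 13.3 FPKM in R24h_C1 and R24h_C2. All 3 R24h_C libraries lay above all Sham_C libraries for all 10 genes, which were selected on these libraries, so nothing on a cause is read from this. With any 1 library of the C arm left out, the log2 difference of Fcer1g at 24 h was between 2.33 and 2.95.

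**Figure D4:**
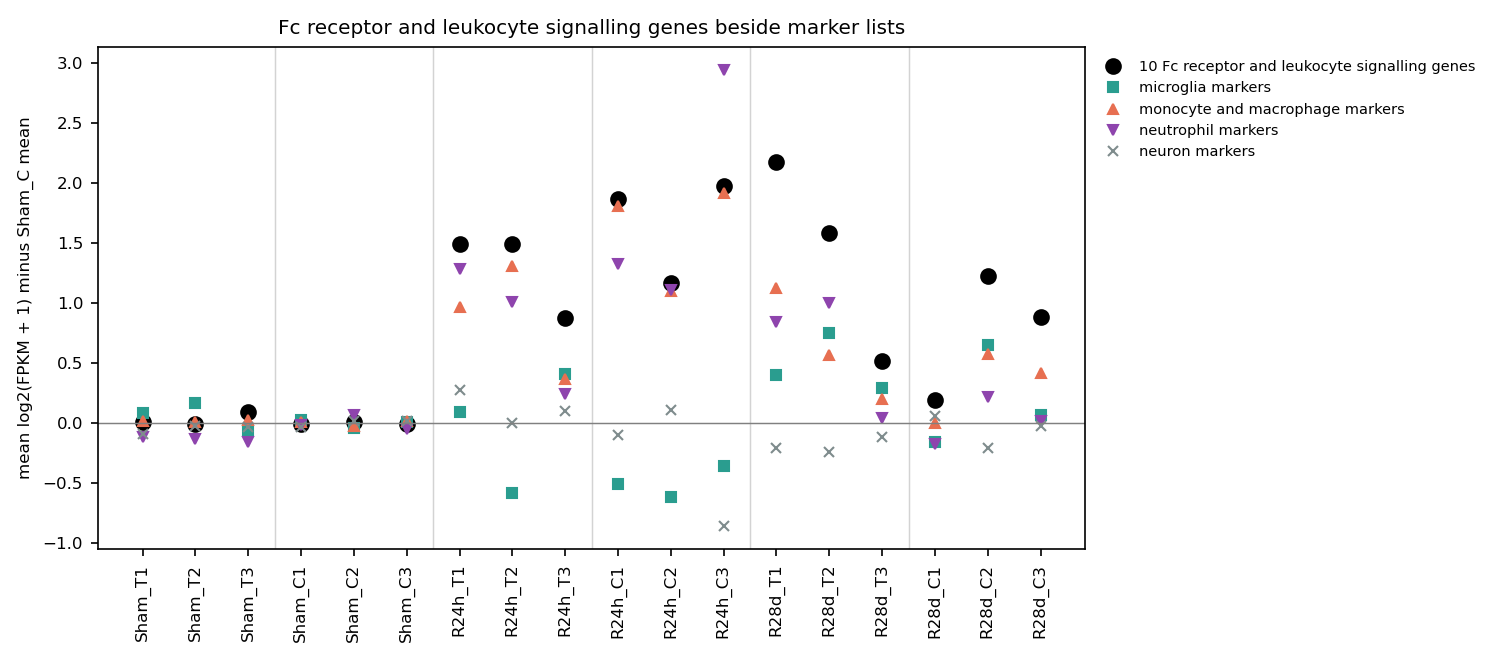
Mean log2(FPKM + 1) minus the Sham_C mean in each of the 18 libraries, for the 10 genes (black) and for 4 lists of cell type markers. The 10 genes lie near the monocyte and macrophage list in R24h_C, at 1.87 beside 1.81 in R24h_C1, but above it in R24h_T1, at 1.49 beside 0.97, and in R28d_T1, at 2.18 beside 1.12, while the microglia list lies at -0.62 to -0.36 in R24h_C.

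The other genes of the pathway were taken from 9 lists with 121 measured genes. Lists and members do not overlap, but the lists too were drawn up with earlier results of these data known. At 24 h in the C arm 69 of the 121 reached the filter, of which 45 were higher and 2 lower by limma. Of all 13873 genes tested, 2746 were higher and 587 lower. The median log2 difference was 0.89 among the pathway genes tested, against 0.13 over all genes. A gene near 0 in sham was tested only if it was high at 24 h, so the share of tested genes that were higher is not the share of all genes listed. Of the 45, 14 passed the filter only through R24h_C libraries, among them Clec4d, Lilrb4a, Pik3ap1, Lcp2, Ncf4 and Evi2b. For R24h_T against Sham_T 62 reached the filter and 2 were higher, where 17 of all 13501 genes tested were. At an unadjusted limma p under 0.05, 30 were higher and 1 lower, where 1196 and 736 of all genes tested were. The median was 0.40, against 0.06 over all genes. The count in the C arm was 8 of 54 tested without R24h_C1, 22 of 54 without R24h_C3 and 40 of 55 without R24h_C2, and between 18 and 20 without 1 of the Sham_C libraries. The T-arm count was 0 without any single library other than R24h_T3, and 17 of 52 without that one.

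Of the receptors that use ITAM adaptors, 4 of 15 measured were tested in the C arm at 24 h and 2 rose. Beside this and the following lists, 19.8% of all genes tested were called higher. The 14 genes that passed the filter only through R24h_C libraries are counted in these lists, Clec4d, Pik3ap1 and Lcp2 among them. Such a gene was tested only if it was high at 24 h, so nothing is read from the counts by list. Tyrobp (DAP12), the adaptor of TREM2 and other myeloid receptors, averaged 66.5 ± 25.8 FPKM in R24h_C against 13.5 ± 1.35 FPKM in Sham_C (limma log2 difference 2.13, adjusted p = 0.00859). Clec4d, a C-type lectin receptor that pairs with Fcer1g, averaged 4.35 ± 2.73 FPKM in R24h_C and was listed at 0 in all Sham_C libraries. Of the other Fc receptors, 2 of 13 were tested and Fcrls, a microglial Fc receptor-like protein of mouse, rose by 1.93 on the log2 scale (limma adjusted p = 0.00376). Among the 12 proximal kinases, 6 were tested and 2 rose, among them Lyn, a Src-family kinase that phosphorylates ITAMs, by 1.31 (limma adjusted p = 0.0157). Of the downstream adaptors and effectors 16 of 20 were tested and 12 rose, led by Pik3ap1, an adaptor of PI3-kinase (1.62), and Lcp2, the adaptor SLP-76 (1.48).

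Of 22 inhibitory receptors and phosphatases measured, 13 were tested, 6 were called higher and 7 were not, where 19.8% of all genes were called higher. Lilrb4a, an ITIM receptor of myeloid cells, averaged 5.68 ± 2.94 FPKM in R24h_C against 0.063 FPKM in Sham_C. Ptpn6, the phosphatase SHP-1 that ITIMs recruit, averaged 6.66 ± 2.12 FPKM in R24h_C against 1.25 FPKM in Sham_C (limma adjusted p = 0.00618). Among Rac GTPases and actin regulators 9 of 12 tested rose, led by Arpc1b, a subunit of the Arp2/3 complex (2.46, limma adjusted p = 0.00366), and Arhgdib, a GDP dissociation inhibitor of blood cells (1.73, limma adjusted p = 0.00328). Rac3, the Rac GTPase best known from neurons, was lower (-0.51, limma adjusted p = 0.0175). All 3 tested genes of the phagocyte NADPH oxidase rose, of 5 measured: Cyba by 2.31, Ncf4 by 1.70 and Ncf1 by 1.18. Ncf4 passed the filter only through R24h_C libraries, as did Lilrb4a above and Evi2b below. Of the leukocyte membrane proteins 6 of 9 tested rose, led by the tetraspanin Cd53 (2.38) and Evi2b (2.29), and Selplg, the P-selectin ligand that microglia also express, fell by 0.64 (limma adjusted p = 0.0136). All 4 tested myeloid transcription factors rose, of 6 measured, led by Spi1 (1.59, limma adjusted p = 0.0126) and Cebpb (1.44, limma adjusted p = 0.0331).

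In the T arm at 24 h the 2 pathway genes that rose were Ptpn6 (log2 difference 1.15, limma adjusted p = 0.0426) and Arhgdib (1.18, limma adjusted p = 0.0302). Tyrobp had a log2 difference of 1.19 (limma adjusted p = 0.0732), Lyn one of 0.92 (limma adjusted p = 0.0532), and Itgb2, the common chain of leukocyte integrins, one of 1.35 (limma adjusted p = 0.0539). The difference between the arms was tested in 85 pathway genes by the interaction at 24 h and none was called. At an unadjusted limma p under 0.05 none was higher and 8 were lower, where 1246 of all 14578 genes tested were lower. At 24 h the arms themselves differed in none of 85 genes. At an unadjusted limma p under 0.05, 6 were lower in R24h_T than in R24h_C, where 802 of all 14010 genes tested were. Both counts are near the share over all genes, and nothing is read from them.

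At 28 d against sham, limma called none of 61 pathway genes in the T arm and none of 57 in the C arm. At an unadjusted limma p under 0.05, 38 and 16 of them were higher. Over all genes tested, 1052 of 13537 in the T arm and 1038 of 13413 in the C arm were. With R28d_T3 left out 25 of 53 were called in the T arm, and with R28d_C1 left out 7 of 55 were called in the C arm. Clec7a (dectin-1), an ITAM-like receptor of myeloid cells, averaged 10.6 ± 8.72 FPKM in R28d_T against 0.104 FPKM in Sham_T, a spread nearly as wide as its mean. From 24 h to 28 d in the C arm 7 of 74 pathway genes were lower, where 670 of all 13988 genes tested were. Among the 7 were Evi2b (-1.90, limma adjusted p = 0.0307), Arpc1b (-1.73, limma adjusted p = 0.0471) and Arhgdib (-1.43, limma adjusted p = 0.024). Evi2b, at 0.48 ± 0.43 FPKM in R28d_C, passed the filter only through R24h_C libraries, so it was tested only because it was high at 24 h. Selplg averaged 11.02 ± 0.82 FPKM in R28d_C against 5.72 ± 0.44 FPKM in R24h_C and was higher (0.84, limma adjusted p = 0.0226). That count of 8 rose to 29 without R24h_C2 and was 0 or 1 without any other single library. Limma called none of 77 between 28 d and 24 h in the T arm. At an unadjusted limma p under 0.05, 4 were higher, where 683 of all 13817 genes tested were, which is a similar share. Between the arms at 28 d none of 72 was called. At an unadjusted limma p under 0.05, 2 were higher in R28d_T, where 216 of all 13773 genes tested were. The interaction at 28 d called none of 72, with 3 higher at that unadjusted level, where 358 of all 14234 genes tested were. In sham, Fcrls averaged 7.58 ± 0.50 FPKM in Sham_T against 3.88 ± 0.39 FPKM in Sham_C (log2 difference 0.82, limma adjusted p = 0.0188). It was the 1 gene called of 51, where 0.21% of all genes tested were called. That call was lost with the replicate number as a block, with no filter, with all 18 libraries in 1 fit and without any of Sham_T1, Sham_T2, Sham_C2 or Sham_C3.

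**Figure D5:**
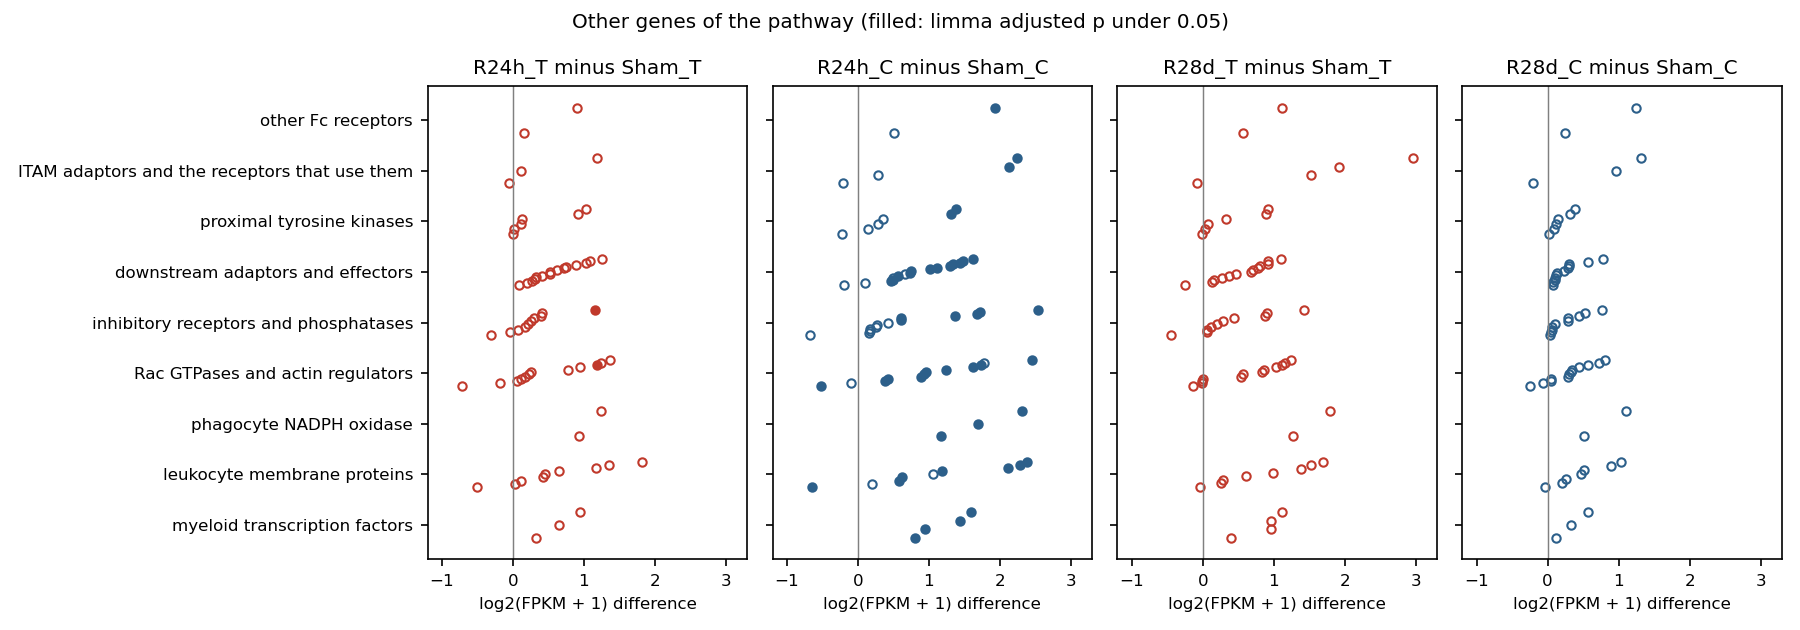
Log2(FPKM + 1) differences of the pathway genes tested, by list, at 24 h and 28 d against the sham group of the same arm (T arm red, C arm blue), with 1 point per gene, filled where limma's adjusted p was under 0.05. Filled points are frequent in the R24h_C panel (45 higher, 2 lower), 2 in number in the R24h_T panel and missing at 28 d.

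The profile of Fcer1g over the 18 libraries was closest to that of Tyrobp, with a root mean square difference of 0.283 between log2(FPKM + 1) profiles centred on their Sham_C mean. The next closest of 13733 genes were Cyba (0.338), Cd68 (0.34), Cd53 (0.38) and H2-D1 (0.40). For Ptprc, which has low values and so a flat profile on this scale, they were Rassf4 (0.104), Tor3a, Cmtm6, Rnf130 and Brip1os. For Syk, which also has low values (0.348 to 2.13 FPKM) and so a rather flat profile, they were Kank2 (0.127), Rack1, Arap1, Bmp2k and Ifnar2. The libraries share group and library state, so these distances describe likeness over these libraries only.

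The genes around the Fc receptor cluster on chromosome 1 were examined after the values were seen. Of 17 protein-coding neighbours, 11 were tested at 24 h in the C arm and 1 was higher, the secreted protease gene Adamts4, which averaged 10.0 ± 3.79 FPKM in R24h_C against 2.55 ± 0.13 FPKM in Sham_C (limma adjusted p = 0.00928). Of all genes tested there, 19.8% were called higher. In the T arm 10 neighbours were tested and none was called, where 0.2% of all genes were called in either direction. Nothing is read from these counts.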

How the data were processed

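The deposited values were FPKM per gene for 18 libraries in 6 groups of 3, made by the authors with HISAT and StringTie on genome build mm9, per the submitters' processing notes, which give no versions and also name edgeR. Libraries were made from poly(A) RNA, per the labels' protocols, strand-marked with dUTP and sequenced in pairs, with molecular identifiers in the adapters; whether these or the strand were used in quantification is not given in the sources used here. FPKM hold no read totals, so the depth is known only as a rough ratio between libraries (0.933 to 1.083) and no counting interval is given. Where a symbol was repeated, the entry with the highest mean was used, which left out 62 rows.

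The test was limma 3.58.1 (trend, empirical Bayes, two-sided) in R 4.3.3 on log2(FPKM + 1), each fit holding the libraries of the groups it compares. A gene entered a fit if 3 or more of its libraries had 1 FPKM or more. Benjamini-Hochberg adjustment ran over every gene that entered, with a threshold of 0.05. Adding 1 before the log shrinks the difference of a gene with low FPKM. The code was tested on simulated data. SEs of the 10 genes come from the group SDs. As alternatives, 0.1 was added before the log, the filter was dropped, libraries were rescaled by median ratios, a term for the replicate number was fitted, libraries were weighted by their quality (array weights), the 18 libraries were fitted together, or a single library was left out.

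The 10 genes and all lists were chosen with earlier results of these data known. A microglia marker was taken out of its list, and its values and those of a pathway gene, which stays in the counts, are not reported here. The pathway genes eligible to be named were, in each list and comparison, up to 2 with the largest log2 difference among those past the threshold, or else the 1 with the smallest p, and, as likenesses of Fcer1g, Ptprc and Syk, the 5 genes with the closest profiles. Other pathway genes (Ncf1, Rac3, Selplg, and Tyrobp, Lyn, Itgb2 where not past the threshold) and the ratios within a library were picked after their values were seen. Sequences are from RefSeq tables of GRCm38.p6, and no coordinate was carried from mm9. Python 3.11.15 with pandas 2.3.3, numpy 2.4.6 and matplotlib 3.10.9 was used for tables and figures.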

Additional observations from a re-analysis of the deposited data

Results flagged for a closer look

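Fcgr3 stood out in the comparison of the arms because its libraries lay on opposite sides of the C-arm mean at different times. Every Sham_T library was below the Sham_C mean of 7.61 FPKM and every R24h_T library below the R24h_C mean of 29.2 FPKM, whereas every R28d_T library was above the R28d_C mean of 11.8 FPKM. The difference T minus C was higher at 28 d than in sham by 1.15 and higher at 28 d than at 24 h by 1.59 on the log2 scale. The first is the interaction at 28 d, in which limma called no gene of the set, and the second was not tested. Fcer1g was above the Sham_C mean of 5.95 FPKM in all 3 Sham_T libraries and below the R24h_C mean of 42.7 FPKM in all 3 R24h_T libraries, and T minus C was lower at 24 h than in sham, with a value of -0.91. That is the interaction at 24 h, in which limma called no gene of the set. For both genes, sides were judged against a group mean.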

How the results depend on the processing

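The replicate number was not taken to pair the libraries, since in no comparison was the correlation of the deviations of same-numbered libraries over 0.1 in every pair, and with it as a replicate block the R28d_C against R24h_C calls were 0 for the 10 genes and 0 for the pathway genes, and the Sham_T against Sham_C call of Fcrls was lost (0). With no filter on low values the pathway genes called were 30 at 24 h in the C arm, 0 in the T arm, 0 for R28d_C against R24h_C and 0 in sham, and the 10 genes gave 0 in the T arm at 24 h and 0 for R28d_C against R24h_C. Of all genes, 5.27%, 0.00301%, 0.0118% and 0.0185% were then called in these comparisons, in the order given for the pathway genes. A pseudocount of 0.1 gave 4 pathway genes in the T arm at 24 h. Median-ratio scaling gave 4 there and 5 for R28d_C against R24h_C. It moved the median of all genes at 24 h in the C arm to 0.002 and the share of calls that were higher to 62.0%, against 82.4% as deposited, with 36 pathway genes higher and 3 lower and 8 of the 10 genes still called. Array weights gave 8 pathway genes in the T arm at 24 h, 7 of the 10 genes and 43 pathway genes in the T arm at 28 d, where 17.8% of all genes were called, and 8 and 56 for R28d_C against R24h_C, where 51.1% were. The estimate of the weights stopped before it converged in that last comparison, at 24 h against sham in the C arm, between the arms at 24 h and in both interactions. One fit of all 18 libraries gave 1 of the 10 genes and 1 pathway gene in the T arm at 24 h, 3 and 24 for R28d_C against R24h_C, 1 pathway gene for R28d_T against R24h_T and 0 in sham. Of all genes, 0.421%, 15.5%, 0.581% and 0.0% were called in these comparisons, in that order. The cause of these changes was not tested.

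With each library left out in turn, calls among the 10 genes ranged from 3 to 7 and pathway calls from 8 to 40 at 24 h in the C arm, and from 0 to 5 and 0 to 17 in the T arm. The share of all genes called then ranged from 2.41% to 36.6% in the C arm and from 0.0% to 6.23% in the T arm. At 28 d against sham the ranges were 0 to 5 and 0 to 7 in the C arm and 0 to 6 and 0 to 25 in the T arm. Of all genes, 0.0151% to 1.42% were called in the C arm and 0.0% to 4.25% in the T arm. For R28d_C against R24h_C the ranges were 0 to 7 and 0 to 29, where 0.0% to 21.4% of all genes were called, and for the pathway genes in sham 0 to 1. The comparisons of the arms at 24 h and 28 d and both interactions called none of either set under any alternative tried. Under alternatives that kept all libraries, differences of the 10 genes changed sign only for Laptm5 between the arms (in sham with array weights, at -0.005, and at 24 h and in the 24 h interaction with scaling, at 0.08 and 0.02) and for Rac2 in R28d_T against R24h_T (0.05 with array weights). With 3 libraries a group and a spread at 28 d of up to 21.2-fold, differences of this size can be missed.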
